A study of Drosophila melanogaster with 4 samples.

Results

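The 47 genes described here encode digestive enzymes of the fly midgut and its lysozymes: 16 Jonah proteases, 11 trypsins, 10 maltases, 2 amylases, the lipase magro and 7 lysozymes. They were defined by gene symbol among the 17677 genes whose transcripts had rows in the count tables, and all 47 symbols were found. The definition uses no measured value, but it was drawn up with earlier results of these data known. Of these genes, 39 had enough reads to enter the test of DmAngel KO against control, which covered 2994 genes in all.

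The reads came from mitoribosome profiling of Drosophila melanogaster larvae. Crude mitochondria were isolated from homogenised third-instar larvae, the lysate was treated with RNase T1, which cuts RNA that ribosomes or other proteins do not shield, and small RNA libraries were made from the monosome fractions of a sucrose gradient. The libraries are therefore mainly a record of mtDNA-encoded RNA, and the digestive enzyme mRNAs are nuclear transcripts of the whole larva that were recovered with the fraction. Control larvae were Angel+/+, given in the study's methods as the wDah strain, and DmAngel KO larvae were Angel-/-, from a line made with Cas9 and a pair of guide RNAs and backcrossed to the same white Dahomey background. Both groups were collected 4 days after egg laying, with 2 libraries each, and the ribosome profiling was done with one knock-out line, KO-1. No tissue was dissected, so a lower value may mean fewer midgut cells, or less of the RNA in each cell or in the fraction, and these cannot be told apart. The series text speaks of technical replicates and the study of independent experiments, and p-values here measure only the spread between these libraries.

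The libraries held between 1789947 and 8227127 reads. Transcripts outside mtDNA received 1324943 and 457054 reads in the control libraries (31.9% and 25.5% of the total). In the DmAngel KO libraries they received 566679 and 518033 reads (6.93% and 6.30%). Levels are given as rpm, the reads per 1000000 reads outside mtDNA, always in the order control replicate 1, control replicate 2, DmAngel KO replicate 1 and DmAngel KO replicate 2 where all 4 values stand together. Fold changes come from edgeR's quasi-likelihood test after TMM scaling, which sets the bulk of genes equal between libraries, with Benjamini-Hochberg adjustment over the 2994 genes. The angel transcript itself had 2, 0, 1 and 1 reads, too few to check the genotype labels. The libraries also differed in their fat body transcripts: the 3 Lsp1 storage protein genes held 30.6% and 16.1% of these reads in control against 3.70% and 2.33% in DmAngel KO. Every rpm value of another gene moves with that share, and TMM-scaled values are for this reason given beside rpm.

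Larval feeding supplies the growth of the animal, and the midgut secretes the hydrolases that break the food down. Jonah proteases and trypsins are serine endopeptidases that cut dietary protein, amylases cut starch into short sugars, maltases release glucose from these, and magro hydrolyses dietary lipids. The lysozymes of this locus cut the bacterial cell wall and are regarded as enzymes for digesting bacteria eaten with the food. Most of these genes lie in tandem clusters of close copies.

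Many digestive enzyme genes were lower in DmAngel KO, and none was called higher. In edgeR's quasi-likelihood test 19 of the 39 tested genes were lower in DmAngel KO, 20 were not called and 0 were higher, against 7.01% lower and 4.18% higher of all 2994 genes. At an unadjusted p under 0.05 edgeR also gave 0 higher genes, as did DESeq2 at an adjusted p, which called 2.34% of all genes higher. With 39 genes, 0 called higher at an adjusted p lies near these shares of all genes. The median log2 fold change of the 39 was -1.24, beside 0.01 for all genes tested. The low-count filter let 6 of the 39 through only with the help of their control reads (Mal-A5, Amy-d and LysE through control alone, and Amy-p, LysC and LysP), and all 6 were called. The test was therefore also run without the filter: 18 of the 47 genes were then lower, 17 of them shared with the 19, against 1.73% of all genes in that fit. Both DmAngel KO libraries lay below both controls in rpm in 19 of the 39 tested genes, against 10.4% of all genes tested. These were the same 19 that the test called from these values. Both amylases, the lipase and all 6 tested lysozymes were called, beside 3 of 5 tested maltases, 5 of 15 Jonah proteases and 2 of 10 trypsins. Several of these are near copies that may share reads. With near copies counted as one gene, 14 of 31 were lower, against 6.83% of all genes in that fit.

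Summed over its members, each class had a lower mean in DmAngel KO. Both DmAngel KO libraries were below both controls in all 6 classes after TMM scaling, but in rpm only for the amylases, lysozymes and magro. The rpm means of the Jonah proteases, trypsins and maltases rest on single libraries: the log2 ratio of the Jonah sums, -0.29, was 0.13 without DmAngel KO replicate 2, that of the trypsins, -0.32, was -0.06 without the same library and -0.07 without control replicate 1, and that of the maltases, -0.62, was -0.01 without control replicate 1. For magro the ratio of -0.98 was -0.47 without DmAngel KO replicate 2. Jonah proteases, the most abundant class, summed to 27500, 20200, 26000 and 12900 rpm. The means were 23800 ± 5130 rpm in control against 19500 ± 9250 rpm in DmAngel KO (SD, n = 2), and the groups overlapped. After TMM scaling the Jonah sums were 35000 and 25400 in control against 19400 and 10800 in DmAngel KO, without overlap. Trypsins summed to 5690, 4130, 4710 and 3170 rpm, and maltases to 1780, 869, 1020 and 705 rpm, both again with overlap. After TMM scaling the trypsin sums were 7260, 5190, 3520 and 2640 and the maltase sums 2270, 1090, 761 and 587, again without overlap. Amylases stood apart, with 200 and 206 rpm in control against 30.0 and 17.4 rpm in DmAngel KO. Lysozymes summed to 2030, 1570, 588 and 537 rpm, and magro to 3070, 2010, 1830 and 743 rpm. In terms of control means, DmAngel KO held 11.7% of the amylase rpm, 31.2% of the lysozyme rpm, 50.7% of the magro rpm, 65.2% of the maltase rpm, 80.3% of the trypsin rpm and 81.7% of the Jonah rpm. After TMM scaling the same shares were 7.18%, 19.4%, 30.9%, 40.2%, 49.5% and 50.0%, in the same order of classes. No test was made of these sums: with 2 libraries against 2, the smallest two-sided exact permutation p is 0.33. The 95% Wilson intervals, which cover counting error only, were within 2.38% of the value for the Jonah sum and widest for the amylases, at 18.7 to 48.0 and 9.14 to 33.0 rpm in the DmAngel KO libraries.

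**Figure D1:**
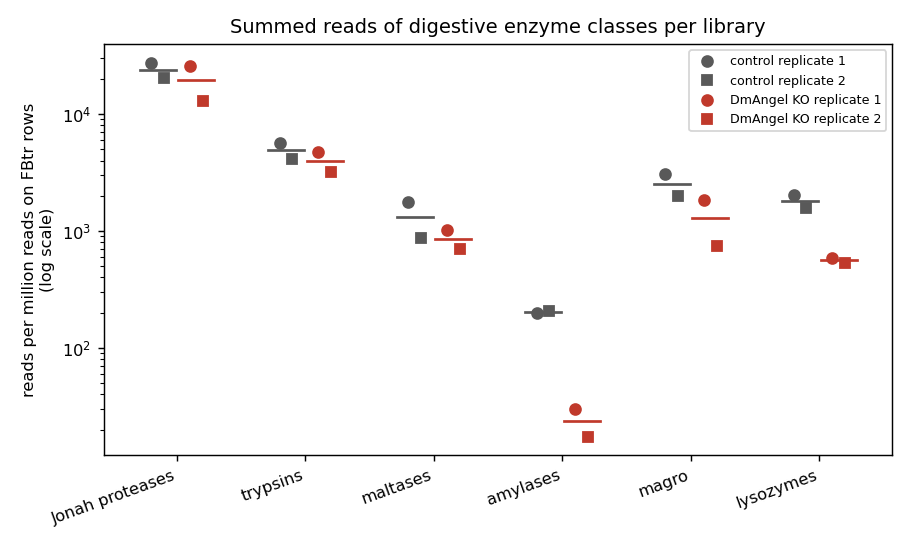
Summed rpm (reads on transcripts outside mtDNA, the FBtr rows) of each enzyme class in the 4 libraries, on a log scale, with each point 1 library and the bar the mean of the group. Amylases, lysozymes and magro have both DmAngel KO libraries below both controls, while the Jonah proteases (26000 and 12900 rpm in DmAngel KO against 27500 and 20200 rpm in control), trypsins and maltases overlap on this scale. After TMM scaling, which is not plotted, no class overlaps.

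The make-up of the enzyme reads also differed between the groups. Jonah proteases made up 68.3% and 69.7% of all reads on the 47 genes in control against 76.1% and 71.4% in DmAngel KO. Lysozymes made up 5.06% and 5.41% in control against 1.72% and 2.97% in DmAngel KO, and amylases 0.497% and 0.710% in control against 0.0878% and 0.0960% in DmAngel KO. Magro made up 7.63% and 6.95% in control against 5.37% and 4.11% in DmAngel KO. In these 4 classes the groups did not overlap. Trypsins (14.1% and 14.2% in control against 13.8% and 17.5% in DmAngel KO) and maltases (4.41% and 3.00% against 2.98% and 3.89%) overlapped. The shares of a library add up to a whole, so a higher share of one class goes with lower shares of others. No test was made of the shares. These are ratios within a library, so neither the Lsp1 share nor the choice of library size enters them. Together the 47 genes took 4.02% and 2.90% of such reads in control against 3.42% and 1.81% in DmAngel KO.

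Among the Jonah proteases, which resemble chymotrypsins, 5 of 15 tested genes fell, and the class median log2 fold change was -0.72. Jon25Bi, with 1150 and 882 rpm in control against 208 and 118 rpm in DmAngel KO, had the lowest fold change of the class (log2 fold change -3.34, SE 0.41, edgeR adjusted p = 0.000298). Both DmAngel KO libraries lay far under the controls, and the TMM-scaled mean was 9.87% of control. Jon44E, which stands alone on chromosome 2R, measured 411, 440, 185 and 71.4 rpm (log2 fold change -2.43, SE 0.42, edgeR adjusted p = 0.00311). Its control libraries were close to each other, and its DmAngel KO libraries differed 2.33-fold after TMM scaling. Jon99Ci, a low-level gene, measured 122, 59.1, 26.5 and 36.7 rpm (log2 fold change -2.23, SE 0.47, edgeR adjusted p = 0.00911).

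Jon65Aiv had the most reads of any of the 47 genes and the highest control level per transcript length, 7070 rpm per kb against 3150 rpm per kb in DmAngel KO. Its rpm values were 7280 and 5500 in control against 3070 and 2640 in DmAngel KO, without overlap (log2 fold change -1.85, SE 0.42, edgeR adjusted p = 0.0147). Jon25Bii measured 1460, 1250, 1060 and 687 rpm, a smaller difference that passed the test narrowly (log2 fold change -1.33, SE 0.37, edgeR adjusted p = 0.0371). In the fits that leave out 1 library or scale the libraries without TMM factors, Jon65Aiv and Jon25Bii both lost their calls without DmAngel KO replicate 1, without DmAngel KO replicate 2 and without TMM factors. Jon25Bii and Jon99Ci also lost theirs without control replicate 1.

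The other 10 tested Jonah proteases did not pass the test, with log2 fold changes from -0.99 for Jon99Fii to 0.29 for Jon65Aii. With the replicate number added to the model, edgeR called Jon25Biii, Jon99Ciii, Jon99Fii and Jon99Fi lower, and 12.4% of all genes. Among the 10 was Jon25Biii, the Jonah gene with the highest level per length in DmAngel KO, at 5290, 3530, 6130 and 2850 rpm (5330 rpm per kb in control against 5420 rpm per kb in DmAngel KO). In rpm its DmAngel KO replicate 1 was the highest and its DmAngel KO replicate 2 the lowest of the 4 libraries, while the TMM-scaled values were 6750, 4440, 4580 and 2370 (log2 fold change -0.69, SE 0.46, edgeR adjusted p = 0.354). The same arrangement in rpm was seen in Jon99Ciii, with 3290, 2570, 4310 and 1660 rpm, in Jon99Cii, with 2150, 1440, 2750 and 1100 rpm, and in Jon66Ci, with 2370, 1680, 3500 and 1430 rpm. After TMM scaling Jon99Ciii had both DmAngel KO libraries below both controls (4200, 3230, 3220 and 1380), as did 9 of the 15 tested Jonah genes, against 27.9% of all genes tested. In rpm 5 of the 15 did. Over the 14 Jonah genes with a mean of at least 100 reads, TMM-scaled DmAngel KO replicate 1 exceeded replicate 2 by a median of 1.99-fold, with a range from 1.04 to 2.4. In control the corresponding ratio had a median of 1.39, with a range from 0.95 to 1.70. Jon99Fii and Jon99Fi measured 1160, 788, 1120 and 492 rpm and 1040, 619, 1170 and 461 rpm. Jon65Aiii, Jon65Ai and Jon66Cii overlapped between the groups in rpm, with log2 fold changes of -0.72, -0.49 and -0.28. Jon65Aii was the single tested Jonah gene with a positive estimate, at 208, 142, 517 and 193 rpm (edgeR adjusted p = 0.700).

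Of the trypsins, which cut proteins after basic residues, 2 of 10 tested genes fell, with a class median log2 fold change of -0.94. EpsilonTry measured 1120 and 829 rpm in control against 605 and 483 rpm in DmAngel KO (log2 fold change -1.53, SE 0.36, edgeR adjusted p = 0.0165). ZetaTry measured 98.9, 74.4, 72.4 and 36.7 rpm and lay at the threshold (log2 fold change -1.38, SE 0.41, edgeR adjusted p = 0.0496). Neither gene overlapped between the groups in rpm, though control replicate 2 and DmAngel KO replicate 1 of zetaTry were close. EpsilonTry lost its call without either DmAngel KO library, zetaTry without control replicate 1 or DmAngel KO replicate 2, and both without TMM factors.

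BetaTry was the most abundant trypsin, with 2330, 1460, 1840 and 1190 rpm, and overlapped between the groups in rpm (log2 fold change -1.03, SE 0.40, edgeR adjusted p = 0.119). After TMM scaling its values were 2980, 1840, 1380 and 993, without overlap. Both DmAngel KO libraries then lay below both controls in 7 of the 10 tested trypsins, against 27.9% of all genes tested. In rpm 2 of the 10 did. GammaTry and deltaTry, near copies of each other, had log2 fold changes of -0.99 and -0.89 with edgeR adjusted p-values of 0.0904 and 0.126. BetaTry, gammaTry and deltaTry were called lower with the replicate number added to the model, as were 12.4% of all genes. ThetaTry and alphaTry had estimates of -0.70 and -0.46, kappaTry of -1.24 and etaTry of -0.25, all outside the threshold. LambdaTry, at the end of the cluster, was the one tested gene of the 39 whose DmAngel KO libraries both lay above both controls, an arrangement found in 57.0% of all genes tested in rpm. It measured 23.4 and 21.9 rpm in control against 54.7 and 44.4 rpm in DmAngel KO, from 10 to 31 reads per library, and did not pass the test (log2 fold change 0.43, SE 0.42, edgeR adjusted p = 0.545).

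Of the 5 tested maltases, which release glucose from short sugars, 3 fell and 2 were not called. Mal-A5 measured 149 and 70.0 rpm in control against 14.1 and 5.79 rpm in DmAngel KO (log2 fold change -4.15, SE 0.55, edgeR adjusted p = 0.000557). Its DmAngel KO libraries held 8 and 3 reads, and pooled over libraries its rpm was 7.86% of control, with an exact 95% counting interval from 3.87% to 14.3%. Mal-A4 measured 152, 103, 26.5 and 19.3 rpm (log2 fold change -3.17, SE 0.42, edgeR adjusted p = 0.000540). Mal-A3 measured 439, 247, 132 and 67.6 rpm (log2 fold change -2.49, SE 0.42, edgeR adjusted p = 0.00282). In these neighbouring genes the groups were widely apart, whereas in Mal-A1 and Mal-A6, which flank them, the groups overlapped. Mal-A6, the maltase with the most reads, measured 564, 238, 462 and 353 rpm (log2 fold change -0.68, SE 0.42, edgeR adjusted p = 0.307). Mal-A1 measured 419, 184, 364 and 232 rpm (log2 fold change -0.73, SE 0.42, edgeR adjusted p = 0.274). For both, the control libraries differed more than the group means did, by 2.4-fold and 2.31-fold after TMM scaling.

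The 2 amylases, which start the breakdown of starch, had the lowest class values. Amy-p was covered by 183, 52, 14 and 6 reads, or 138, 114, 24.7 and 11.6 rpm (log2 fold change -3.47, SE 0.44, edgeR adjusted p = 0.000379). Amy-d was covered by 82, 42, 3 and 3 reads, or 61.9, 91.9, 5.29 and 5.79 rpm (log2 fold change -4.40, SE 0.54, edgeR adjusted p = 0.000298). The groups were well apart for both genes, and the DmAngel KO reads of Amy-d stood at the floor of 3 counts per library. Pooled over libraries, Amy-d rpm in DmAngel KO was 7.95% of control, with an exact 95% counting interval from 2.86% to 17.8%. Because the coding sequences of the pair are near copies, reads may have been assigned to either, and counted as one gene they gave a log2 fold change of -3.78 (SE 0.40, edgeR adjusted p = 0.000175).

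Magro (mag), a lipase secreted into the gut lumen that hydrolyses triacylglycerol, lies on chromosome 3L from 20460683 to 20462274 (BDGP6.54). Per transcript length its control level of 1720 rpm per kb followed those of Jon65Aiv and LysS among the called genes, and its level in DmAngel KO was 872 rpm per kb. The libraries measured 3070, 2010, 1830 and 743 rpm, so that control replicate 2 and DmAngel KO replicate 1 lay close together. The log2 fold change was -1.70 (SE 0.46, edgeR adjusted p = 0.0345), and the call was lost without TMM factors, without control replicate 1 and without DmAngel KO replicate 2.

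All 6 tested lysozymes fell, with log2 fold changes from -2.91 to -1.93 and a median of -2.52. LysS, the most abundant, measured 1280 and 1090 rpm in control against 399 and 378 rpm in DmAngel KO, with little spread inside either group (log2 fold change -2.29, SE 0.36, edgeR adjusted p = 0.00171). LysD measured 312, 173, 90.0 and 65.6 rpm (log2 fold change -2.34, SE 0.40, edgeR adjusted p = 0.00279). LysB measured 232, 166, 52.9 and 42.5 rpm (log2 fold change -2.76, SE 0.38, edgeR adjusted p = 0.000648). In each of these genes the higher DmAngel KO library lay clearly under the lower control. LysC, annotated as a pseudogene, measured 84.5, 63.4, 10.6 and 21.2 rpm, and LysE measured 83.0, 48.1, 15.9 and 17.4 rpm, with log2 fold changes of -2.91 and -2.69. LysB, LysC, LysD and LysE are close copies, and LysC ends inside the last bases of LysD on the other strand. Their reads may therefore be shared, and counted as one gene they gave 712, 451, 169 and 147 rpm (log2 fold change -2.58, SE 0.38, edgeR adjusted p = 0.00131). LysP, known from the adult salivary gland rather than the midgut, had the fewest reads of the 6, with 43.0, 28.4, 19.4 and 11.6 rpm (log2 fold change -1.93, SE 0.48, edgeR adjusted p = 0.0220). Its call was lost without TMM factors, without control replicate 1 and without DmAngel KO replicate 2, and those of the other 5 lysozymes held in these fits.

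**Figure D2:**
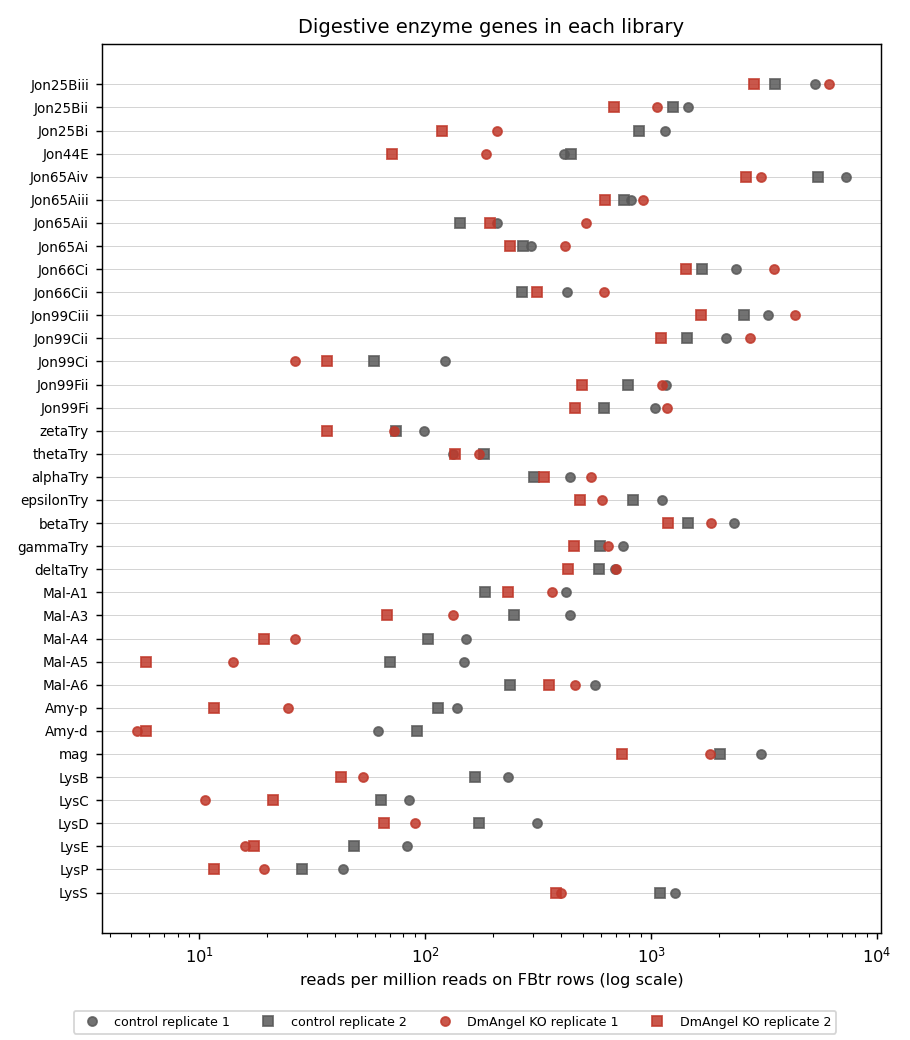
Level in rpm (log scale) of the 36 named genes in each library, with circles for replicate 1 and squares for replicate 2, control in grey and DmAngel KO in red. In the lysozymes, amylases and Mal-A3 to Mal-A5 the red points lie left of the grey ones, while in most Jonah proteases and trypsins they interleave on this scale, as in Jon25Biii with 6130 and 2850 rpm in DmAngel KO around 5290 and 3530 rpm in control.

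**Figure D3:**
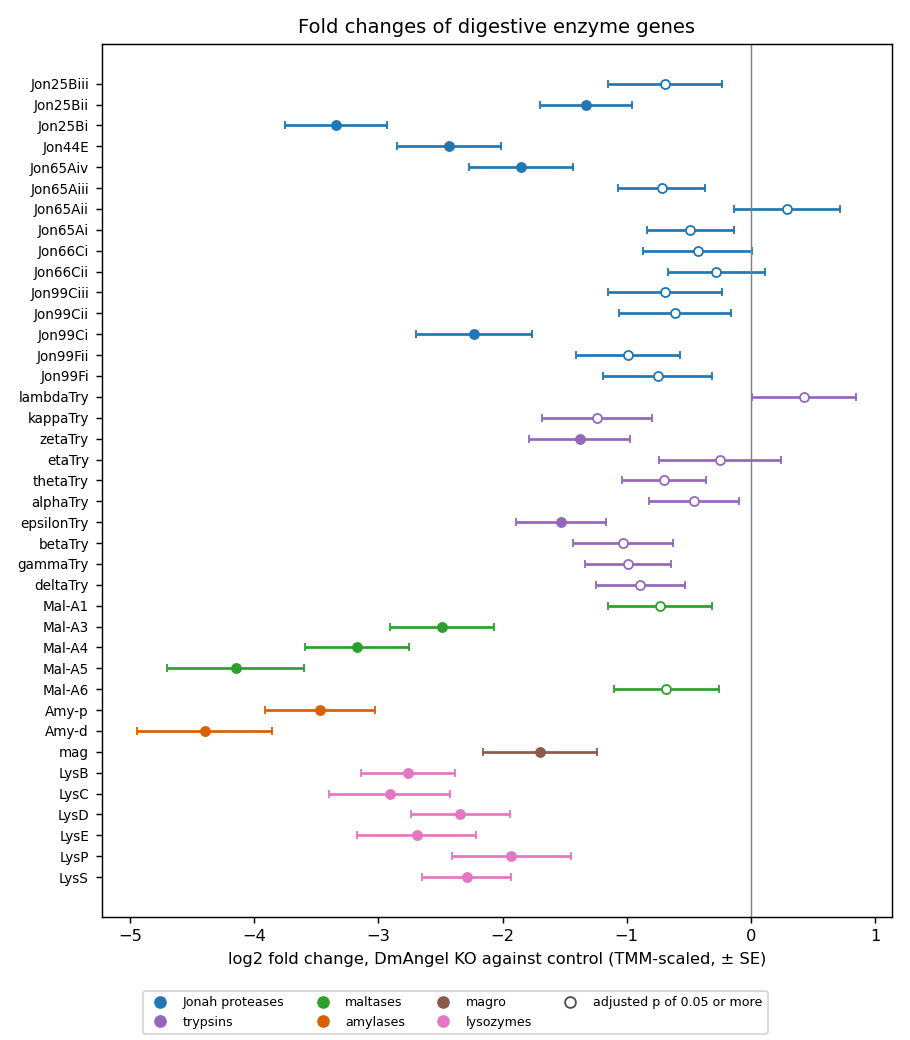
Log2 fold change (TMM-scaled, bar ± SE) of the 39 tested genes, DmAngel KO against control, coloured by class, with open points for genes outside the threshold of 0.05. The filled points range from -4.40 for Amy-d to -1.33 for Jon25Bii, and 37 of the 39 estimates lie below 0.

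In the Jonah, trypsin and maltase clusters, called genes stood beside related genes that were not called, whereas all tested lysozymes and both amylases were called. The Jon25B cluster spans 5.20 kb of chromosome 2L, from 4949941 to 4955144, and in it the log2 fold changes ran from -0.69 for Jon25Biii through -1.33 for Jon25Bii to -3.34 for Jon25Bi. Per 100 reads of Jon25Biii, Jon25Bi had 21.7 and 25.0 reads in control against 3.40 and 4.14 in DmAngel KO. In the Jon65A cluster, 15.3 kb on chromosome 3L from 6039155 to 6054443, Jon65Aiv had 898 and 726 reads per 100 reads of Jon65Aiii in control against 333 and 423 in DmAngel KO. These ratios are taken within a library, so scaling does not enter them, and the pairs were chosen after their values were seen, so no test was made.

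The Mal-A cluster holds 8 genes in 24.3 kb of chromosome 2R, from 8449664 to 8473961. Per 100 reads of Mal-A6, Mal-A4 had 27.0 and 43.1 reads in control against 5.73 and 5.46 in DmAngel KO. Per 100 reads of Mal-A1, Mal-A3 had 105 and 135 reads in control against 36.4 and 29.2 in DmAngel KO. The groups were apart in both pairs. Each pair sets a called gene against one that was not called and was chosen after its values were seen. A difference was therefore built into the choice. In the trypsin cluster, 11 genes in 20.7 kb of chromosome 2R from 11336840 to 11357537, epsilonTry had 256 and 275 reads per 100 reads of its neighbour alphaTry in control against 112 and 145 in DmAngel KO. In the Jon99C cluster, 3.97 kb on chromosome 3R from 29922216 to 29926189, Jon99Ci had 3.70 and 2.30 reads per 100 reads of Jon99Ciii in control against 0.615 and 2.21 in DmAngel KO, so that both replicate 2 libraries were close. The lysozyme cluster, 7 genes in 33.5 kb of chromosome 3L from 1194739 to 1228238, had all 6 tested genes called, and LysS had 410 and 629 reads per 100 reads of LysD in control against 443 and 576 in DmAngel KO, with overlap.

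**Figure D4:**
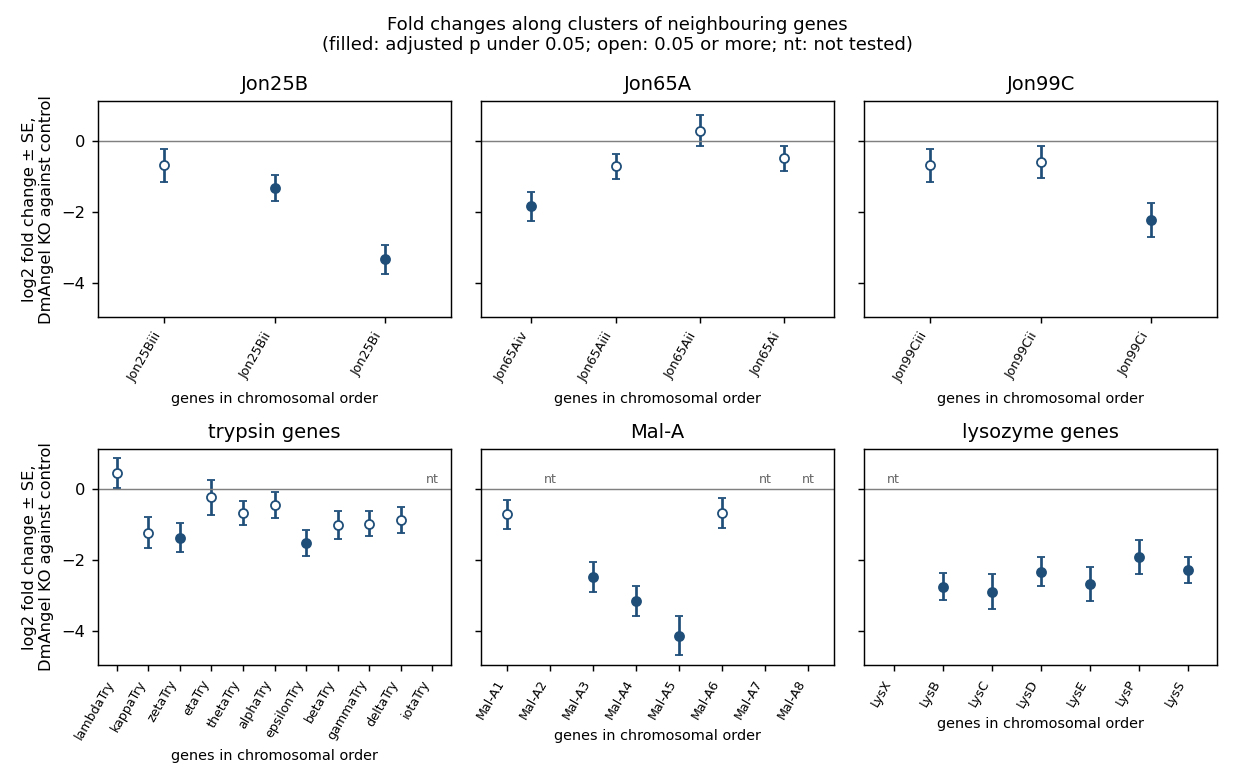
Log2 fold change (TMM-scaled, bar ± SE) of the genes of 6 clusters, DmAngel KO against control, in chromosomal order, with filled points for an adjusted p under 0.05, open points for 0.05 or more, and nt for genes not tested. The 3 called maltases (-2.49, -3.17 and -4.15) stand between Mal-A1 and Mal-A6 (-0.73 and -0.68), Jon25Bi is the lowest of its cluster, and the 6 tested lysozymes lie together.

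Reads of near copies, and of transcripts of one gene, could not be told apart with certainty. Genes with 2 annotated transcripts had their reads split almost evenly over the transcript rows, for example 2733 and 2686 reads for betaTry, so no transcript of a gene could be set apart from the other. Counted as one gene, Jon65Aiii and Jon65Aiv were lower (log2 fold change -1.68, edgeR adjusted p = 0.0248). AlphaTry with betaTry, gammaTry with deltaTry, and Jon99Cii with Jon99Ciii were not called (log2 fold changes -0.92, -0.95 and -0.67, edgeR adjusted p-values 0.162, 0.119 and 0.389).

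The size of the fold changes depended on the scaling. Without TMM factors the median log2 fold change of all genes moved from 0.01 to 0.70, and 8 named genes that were not called, among them Jon25Biii, alphaTry and Mal-A6, changed sign to values between 0.01 and 0.43. Without TMM factors 13 of the 19 genes kept their calls, against 3.87% of all genes called lower in that fit, and Jon25Bii, Jon65Aiv, epsilonTry, zetaTry, mag and LysP lost theirs. With library sizes from all rows, mtDNA included, 38 of the 39 genes were lower, but so were 63.7% of all genes. Without control replicate 1, 14 of the 19 calls were kept (5.41% of all genes lower), without control replicate 2 all 19 (10.3%), without DmAngel KO replicate 1, 16 (4.14%) and without DmAngel KO replicate 2, 13 (4.24%). DESeq2 did not call zetaTry and LysP, and the fit without the low-count filter did not call Jon25Bii and zetaTry. With any of the library sizes used, and without any 1 library, 12 genes kept their calls: Jon25Bi, Jon44E, Mal-A3, Mal-A4, Mal-A5, Amy-p, Amy-d, LysB, LysC, LysD, LysE and LysS.

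The 8 genes that were not tested had few reads. IotaTry had 24, 11, 9 and 4 reads and Mal-A2 had 33, 5, 3 and 3. With no filter beyond 1 read, Mal-A2 was lower (log2 fold change -2.56, SE 0.70, edgeR adjusted p = 0.0128), and its pooled rpm in DmAngel KO was 25.9% of control with an exact 95% counting interval from 8.96% to 61.8%. It lies between Mal-A1 and Mal-A3. Mal-A8 had 19, 3, 1 and 3 reads, Mal-B2 had 14, 3, 5 and 8, and Jon74E had 7, 0, 8 and 2, and none of these was called in that fit. Mal-B1 had 1, 1, 2 and 0 reads. Mal-A7 and LysX, a lysozyme known from the pupal gut, each had 2 reads in control replicate 1 and none elsewhere, which at 3 counts allows up to 6.56, 5.29 and 5.79 rpm in the other libraries.

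Digestive genes that the symbols of these 6 classes leave out were also lower. Of 39 symbols listed, 36 had rows, 26 were tested, and 14 of these fell, against the 7.01% lower of all genes, with a median log2 fold change of -1.39. Some of the 14 passed the low-count filter only through their control reads. CG30031 (1011, 262, 366 and 236 reads) and CG30025 (1017, 218, 389 and 247), neither called, had counts close to those of gammaTry and deltaTry. Whether reads were shared among them was not tested, so they may not be separate from these trypsins. Without the filter 14 of 35 were lower, against 1.73% of all genes in that fit. None was higher in edgeR, at an unadjusted p under 0.05 or in DESeq2. Of all genes tested 4.18% were called higher in edgeR and 2.34% in DESeq2, so 0 of 26 lies near these shares. Among them LManVI, of the alpha-mannosidase family, measured 2470, 1550, 129 and 147 rpm (log2 fold change -4.54, SE 0.45, edgeR adjusted p = 7.95e-05). LManV of the same family measured 1620, 1040, 95.3 and 127 rpm (log2 fold change -4.25, SE 0.44, edgeR adjusted p = 0.000108). Both were far lower in DmAngel KO, and yip7, a serine protease related to the Jonah genes, measured 1680, 1000, 731 and 577 rpm (log2 fold change -1.73, SE 0.39, edgeR adjusted p = 0.0140).

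Markers of the midgut cells themselves were present in each library. The 9 midgut markers, none at 0 in any library, summed to 286, 199, 364 and 270 rpm. This sum moves with the Lsp1 share and was not TMM-scaled. Of the 3 with enough reads for the test (Npc1b, Ndae1 and Myo31DF) edgeR and DESeq2 called 0, with 0 at an unadjusted p under 0.05. Their median log2 fold change after TMM scaling was -0.30. Npc1b, a sterol uptake protein of enterocytes and the most read of the 9, measured 172, 101, 148 and 122 rpm (log2 fold change -0.73, edgeR adjusted p = 0.214). Ndae1 had a log2 fold change of -0.30. Myo31DF went the other way, with 10.6, 15.3, 35.3 and 29.0 rpm (log2 fold change 0.70). The median log2 fold changes of the enzyme classes ran from -0.72 for the tested Jonah proteases to -3.94 for the amylases. Between these lay the trypsins (-0.94), magro (-1.70), the maltases (-2.49) and the lysozymes (-2.52). Most of the other midgut markers were too low for a comparison, and the 6 enteroendocrine peptide genes summed to 19.6 to 57.9 rpm. Markers of other tissues were also read. Of the 7 fat body markers 6 fell: the 3 Lsp1 genes, and Lsp2, Fbp1 and Fbp2, which passed the low-count filter only through their control reads. The remaining marker, apolpp, was not called and measured 52600, 40900, 82300 and 84400 rpm (log2 fold change 0.15, edgeR adjusted p = 0.881). The summed share of all 7 in the non-mtDNA reads was 36.5% and 20.6% in control against 11.9% and 10.8% in DmAngel KO, where apolpp held most of it. The salivary glue genes summed to 178 and 359 rpm in control against 3.53 and 5.79 rpm in DmAngel KO, with 4 of 6 at 0 in both DmAngel KO libraries and all 3 tested genes lower. These 3 (Sgs3, Sgs5 and Sgs7) passed the low-count filter only through their control reads, so their number adds nothing to the summed values. The 6 muscle markers took 0.288% and 0.334% in control against 1.03% and 0.541% in DmAngel KO. In rpm, 57.0% of all genes tested had both DmAngel KO libraries above both controls. After TMM scaling the log2 fold changes of the 6 ran from -0.21 to 0.84, with a median of 0.38. Of the 6, edgeR and DESeq2 called 0, and 1 was higher at an unadjusted p under 0.05. Of 5 tested cuticle markers 2 fell, while edgeR and DESeq2 called 0 of 4 hemocyte markers, with 0 at an unadjusted p under 0.05. The part of these tissue differences in the lower digestive enzyme reads was not tested.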

How the data were processed

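Mitoribosome profiling libraries of 2 control and 2 DmAngel KO larval samples were used. The authors deposited whole-number read counts per transcript: reads were aligned with Bowtie2 and counted with bedtools on BDGP6 (Ensembl release 99 per the study's methods), and how reads matching several transcripts were counted is not given in the sources used here. The 34882 rows of transcripts outside mtDNA were summed per gene with the annotation BDGP6.54, which also gave coordinates; 169 rows were unmatched and held at most 0.0880% of the reads. Genes were filtered with filterByExpr and tested with edgeR 4.0.16 in R 4.3.3 (quasi-likelihood, TMM, no covariates, Benjamini-Hochberg, threshold 0.05). The SE is the log2 fold change over the root of F. The code was tested on simulated data. Counts of replicates differed by more than sampling noise (chi-square 99771.4 with 4859 degrees of freedom in control, 46884.6 with 5384 in DmAngel KO), so none was merged. Precision was limited by 457054 to 1324943 reads per library outside mtDNA.

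The 36 named genes are those past the threshold, the most read of each class and those with a mean of at least 100 reads. Further members outside these limits, such as lambdaTry and Mal-A2, are also given. Other digestive genes past the threshold were limited to 3 per direction, and CG30025 and CG30031 were added for their read counts. Lists fixed were other digestive genes and markers of midgut, enteroendocrine cells, fat body, muscle, cuticle, salivary gland and hemocytes. The members and lists were chosen with earlier results of these data known. Alternatives were DESeq2 1.42.0, other library sizes, filters, the replicate block, merged copies, transcript rows and leaving out each library. The library size without Lsp1 genes was chosen after seeing the data. No sequence was used.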

Additional observations from a re-analysis of the deposited data

How the results depend on the processing

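Over 14 alternatives to the test of 36 named genes, 425 of 504 values kept their direction and side of the threshold, 35 calls were lost and 28 gained, and none of the 16 values that changed sign belonged to one of the 19 called genes. The number of called genes lower in DmAngel KO (19) was 38 with library sizes from all rows and 13 to 24 without 1 library. Of all genes, 125 were higher and 210 lower; the counts were 735 and 116 without TMM factors, 39 and 1907 with library sizes from all rows, 232 and 125 without the Lsp1 genes, and 92 to 160 and 124 to 307 without 1 library (124 and 127 lower without DmAngel KO replicate 1 and 2), and DESeq2 called 70 higher. In place of 14 other digestive genes lower, there were 25 with all rows, 9 without Lsp1 genes and 9 to 18 without 1 library (9 without DmAngel KO replicate 2), and 1 (CtsL1, named after its value was seen) was higher without TMM factors.

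The log2 ratios of class sums in rpm were -0.29 for Jonah proteases, -0.32 for trypsins, -0.62 for maltases, -3.10 for amylases, -0.98 for magro, -1.68 for lysozymes and -0.40 for all 47. With all rows as library size they were -2.41, -2.45, -2.78, -5.19, -3.10, -3.81 and -2.53. TMM factors moved them all by about the same amount, to -1.0, -1.01, -1.32, -3.80, -1.70, -2.36 and -1.11, and leaving out Lsp1 genes to -0.66, -0.69, -1.02, -3.45, -1.36, -2.05 and -0.78. Without 1 library the ranges were -0.88 to 0.13 (positive without DmAngel KO replicate 2), -0.63 to -0.06, -1.04 to -0.01, -3.55 to -2.76, -1.77 to -0.47, -1.86 to -1.48 and -0.94 to -0.02.

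Signs changed without TMM factors for Jon25Biii (0.02), Jon65Ai (0.21), Jon66Ci (0.28), Jon66Cii (0.43), Jon99Ciii (0.03), Jon99Cii (0.10), alphaTry (0.24) and Mal-A6 (0.01), with all rows for Jon65Aii (-1.10), without Lsp1 genes for Jon66Cii (0.05). Without 1 library they also changed for Jon65Aii (-0.49 without DmAngel KO replicate 1, to 0.80), Jon66Ci (-1.12 to 0.03 without DmAngel KO replicate 2), Jon66Cii (-0.77 to 0.11, positive also at 0.09 without DmAngel KO replicate 2), Mal-A1 (-1.20 to 0.01) and Mal-A6 (-1.17 to 0.10), the highest values of the last 3 being those without control replicate 1. Where a scaling changed a count, the median of all genes moved with it, to 0.70 without TMM factors, -1.42 with all rows and 0.33 without Lsp1 genes.

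The replicate numbers name 2 pairs. The study states in general terms that wild-type and knock-out samples were prepared in parallel, but no label ties a pair to a shared batch. Replicate differences in the groups correlated at 0.187 over the genes tested and 0.00683 over the digestive enzyme genes. With the replicate block, 250 genes were higher and 372 lower, and 27 of the 39 enzyme genes (against 12.4% of all genes) and 18 of the 26 other digestive genes were lower. The named genes gained with the block were Jon25Biii, Jon99Ciii, Jon99Fii, Jon99Fi, betaTry, gammaTry and deltaTry (adjusted p with the block 0.0341, 0.0229, 0.00372, 0.0341, 0.00343, 0.00842 and 0.0170). A floor of 3 counts corresponds to 2.26 to 6.56 rpm, which limits what can be said of lower levels. The causes of these changes were not tested.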
